A study of Mus musculus with 3 samples.

Results

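The genes described here are 10 regulators of DNA methylation and of polycomb repression, chosen by symbol in the GENCODE M21 gene and transcript tables and making up 10 of 55536 annotated genes. They are the DNA methyltransferases Dnmt1, Dnmt3a and Dnmt3b, the 5-methylcytosine dioxygenases Tet1, Tet2 and Tet3, and the core subunits of Polycomb Repressive Complex 2 (PRC2), Ezh1, Ezh2, Eed and Suz12. Polyadenylated RNA came from primary T cells of 1 adult male C57BL/6J mouse, 7 months old, labelled as CD4-positive, alpha-beta and of the effector memory type; how they were isolated is not stated. The 3 libraries are technical replicates 1, 2 and 3 of 1 biological replicate, all in 1 group with no genetic change or treatment given in the labels, so no condition is compared. Every SD and p-value below therefore measures spread between libraries of 1 mouse, which is technical. Posterior SDs of counts are the exception: they give the uncertainty of assigning reads to models within 1 library.

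Methylation of cytosine in CpG dinucleotides is copied after DNA replication by Dnmt1 and placed on unmethylated DNA by Dnmt3a and Dnmt3b. The Tet enzymes oxidise it to 5-hydroxymethylcytosine and further products, which opens the way to its loss. PRC2 methylates lysine 27 of histone H3: Ezh1 or Ezh2 carries the catalytic SET domain, Eed binds the trimethylated product and stimulates the enzyme, and Suz12 holds the complex together. In T cells the DNA methyltransferases and PRC2 are known for restraining genes of other lineages and of other helper cell programmes.

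Alternative first exons are known for Dnmt1 and Dnmt3a in the mouse, and the windows upstream of 5 of their starts are shown because transcript levels below are split by these starts. Each line gives the 250 bases before an annotated RefSeq start on GRCm38.p6, 5′ to 3′ on the gene's strand, with CpG dinucleotides in capitals. The Dnmt1 windows lie on the minus strand at chr9:20959889-20960138 (far upstream start), chr9:20952980-20953229 (middle start) and chr9:20952624-20952873 (last start). The Dnmt3a windows lie on the plus strand at chr12:3806910-3807159 (upstream start) and chr12:3891494-3891743 (internal start).
Dnmt1 far upstream start: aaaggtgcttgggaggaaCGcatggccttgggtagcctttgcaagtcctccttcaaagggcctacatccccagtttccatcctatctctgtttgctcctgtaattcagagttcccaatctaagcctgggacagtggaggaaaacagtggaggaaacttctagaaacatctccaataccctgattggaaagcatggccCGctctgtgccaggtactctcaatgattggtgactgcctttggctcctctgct
Dnmt1 middle start: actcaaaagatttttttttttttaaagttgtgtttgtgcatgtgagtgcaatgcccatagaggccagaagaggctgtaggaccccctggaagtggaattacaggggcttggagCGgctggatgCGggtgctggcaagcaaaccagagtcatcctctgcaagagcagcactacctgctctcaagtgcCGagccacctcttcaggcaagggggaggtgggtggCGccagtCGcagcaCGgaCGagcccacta
Dnmt1 last start: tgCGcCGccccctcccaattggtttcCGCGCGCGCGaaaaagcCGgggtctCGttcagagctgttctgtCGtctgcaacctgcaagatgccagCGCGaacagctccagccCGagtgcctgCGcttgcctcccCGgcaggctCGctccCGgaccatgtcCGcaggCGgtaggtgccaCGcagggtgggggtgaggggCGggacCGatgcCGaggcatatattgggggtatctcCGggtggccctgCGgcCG
Dnmt3a upstream start: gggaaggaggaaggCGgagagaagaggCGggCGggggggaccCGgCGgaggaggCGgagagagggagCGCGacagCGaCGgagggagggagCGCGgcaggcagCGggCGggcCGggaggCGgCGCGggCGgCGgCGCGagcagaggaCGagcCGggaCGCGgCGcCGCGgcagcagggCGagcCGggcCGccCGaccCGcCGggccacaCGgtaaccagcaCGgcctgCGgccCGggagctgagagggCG
Dnmt3a internal start: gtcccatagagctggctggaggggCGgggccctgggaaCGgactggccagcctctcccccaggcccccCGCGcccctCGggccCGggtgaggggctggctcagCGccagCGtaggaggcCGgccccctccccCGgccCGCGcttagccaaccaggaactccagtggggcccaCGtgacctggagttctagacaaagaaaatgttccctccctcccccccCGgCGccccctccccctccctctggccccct

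The windows differ widely in CpG content. Of these 250 bases, the far upstream Dnmt1 window held 2 CpG dinucleotides, the middle one 7 and the last one 26, while the upstream Dnmt3a window held 40 and the internal one 15. In the full 300-base windows, which add 50 bases after the start, the median over 32851 RefSeq windows of 27025 genes was 7 CpG. All 10 regulators had at least 1 window, 14 in all, and the far upstream Dnmt1 window with 2 CpG was the one below that median. Tet2, with 57, Dnmt3a, with 47 and 46 at its neighbouring upstream starts, and Suz12, with 41, had the most. Both strands were searched for letters of E2F sites, which were TTCCCGC, then TTCGCGC, then TTGCCGC and finally TTGGCGC. At least 1 of these occurred in 3 of the 14 windows (Ezh2, Suz12 and the last Dnmt1 start) and in 9.57% of all windows. The letters GGGCGG, of the SP family, occurred in 9 of the 14 and in 35.7% of all windows. The ETS letters CCGGAAG occurred in 0 of the 14 (8.86% of all), the TATA box letters TATAAA in 0 (13.6%) and the CRE-type letters TGACGT in 1 (7.51%).

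The libraries held 16251564, 14878641 and 14152590 estimated counts in genes for libraries 1, 2 and 3. The cell type label was checked against markers: all 9 CD4 T cell genes listed, Cd4 and Cd3e among them, lay above 10 TPM (each transcript's share of all transcripts, a level per length). Of the 2 cytotoxic T cell genes, Cd8a was at 0.0433 TPM ± 0.0153 (SD, n = 3) and Cd8b1 at 3.31, 4.1 and 5.08 TPM. The 5 B cell genes had means at or below 0.473 TPM and the 6 myeloid genes means at or below 0.51 TPM. Their highest values in a single library were 0.6 TPM (Cd79b, library 3) and 0.81 TPM (Itgam, library 1). Of the 4 natural killer genes, 1 exceeded 10 TPM (Klrb1c, 17.96 ± 4.19), while Klra8 and Klra4 were at 0. The summed level of the natural killer list ranged from 13.5 to 21.7 TPM over the libraries, that of the 4 dendritic genes, led by Xcr1, from 1.99 to 2.75 TPM, and that of the erythroid and stromal list, led by Epcam, from 5.61 to 7.29 TPM. What part such cells had in the levels below was not tested. In a bulk sample a smaller share of expressing cells and less RNA per cell cannot be told apart. Library 2 stood apart: the mean chi-square per gene was 18.5 between libraries 1 and 2 and 20.0 between 2 and 3, against 6.08 between 1 and 3. The library tests of the regulators are also given without it where their call changed.

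Of the 10 regulators, 9 had at least 1 TPM in every library and 8 had a mean of at least 10 TPM, against 45.5% and 34.2% of 22028 protein-coding genes. The exception at 1 TPM was Tet1, which the deposited posterior means put at 2.27, 1.61 and 1.99 TPM, so that all 10 regulators reached 1 TPM by that estimate. The median of the regulators' mean levels was 36.7 TPM, beside a median of 0.7 TPM over protein-coding genes. In order of mean level they ran Eed, Ezh1, Dnmt1, Ezh2, Tet2, Suz12, Dnmt3a, Tet3, Dnmt3b and Tet1. From Eed down to Ezh2 the ranges of neighbours did not overlap. Neighbours from Ezh2 down to Tet3 overlapped, and below Tet3 each step was again clear of the next.

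**Figure D1:**
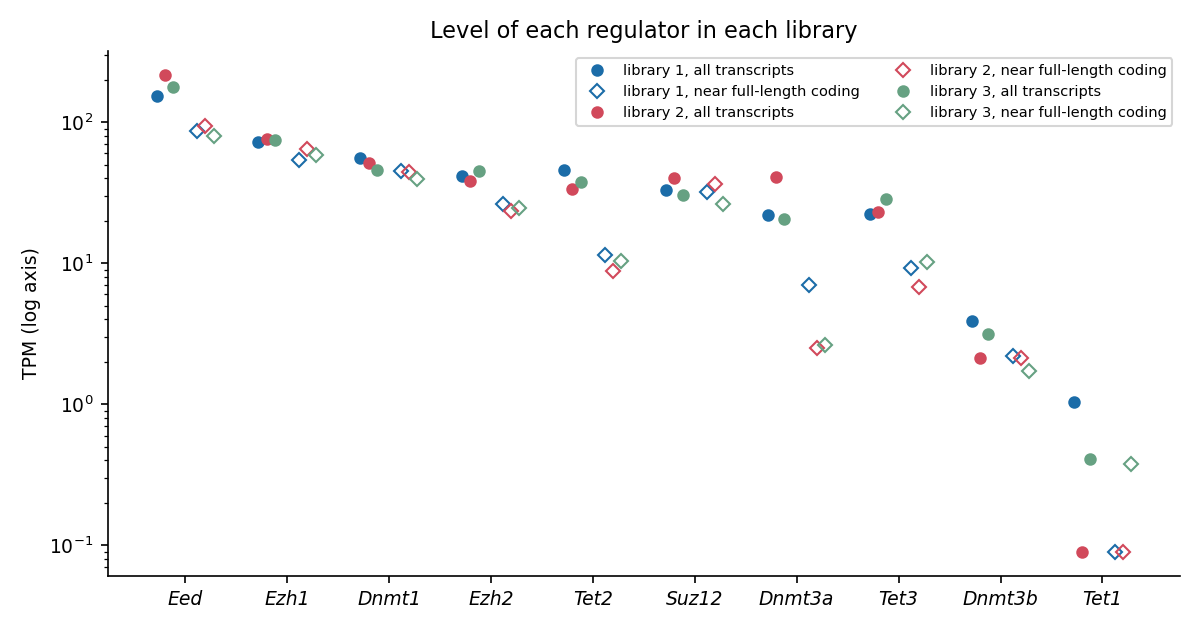
Level of each regulator (TPM, log axis) in libraries 1, 2 and 3, with filled circles for all annotated transcripts and open diamonds for transcripts coding for at least 75% of the gene's longest protein. Eed is highest (152.12 to 217.04 TPM) and Tet1 lowest (0.09 to 1.04 TPM). The mean near full-length level is 4.06 TPM for Dnmt3a, 10.2 for Tet2 and 8.77 for Tet3, well below their circles, as is the Tet1 diamond of library 1 (0.09 TPM).

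Dnmt1, the maintenance methyltransferase (chr9:20907209-20959888, minus strand, GRCm38), led the methyltransferases at 55.57, 51.23 and 45.5 TPM in libraries 1, 2 and 3, a mean of 50.8 ± 5.05 (SD, n = 3). It lay above Dnmt3a in every library and took 62.8% ± 7.31 of the TPM of the 3 methyltransferases. Dnmt3a, a de novo enzyme (chr12:3806007-3914443, plus strand), was at 21.83, 40.56 and 20.72 TPM, so library 2 stood well above libraries 1 and 3, which were close to each other. Dnmt3b, the other de novo enzyme (chr2:153649450-153687730, plus strand), was low at 3.88, 2.13 and 3.13 TPM and rested on 97.25, 77.71 and 68.37 estimated counts. The ratio of Dnmt3a to Dnmt1 was -0.94 ± 0.53 on the log2 scale of TPM, with Dnmt3a lower in 3 of 3 libraries, and -1.24 without library 2.

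The size of the Dnmt3a to Dnmt1 ratio depended on which transcripts were counted. Transcripts coding for at least 75% of the longest annotated protein, called near full-length here, held 43.0 ± 2.91 TPM of Dnmt1 but 4.06 ± 2.59 TPM of Dnmt3a. On these the log2 ratio was -3.58 ± 0.80, a Dnmt1 level 11.9-fold higher by the geometric mean. The 4 near full-length transcripts of Dnmt3a summed to 7.05, 2.49 and 2.65 TPM. Library 1 was the highest by this measure, whereas library 2 was the highest over all transcripts. The sum in library 1 lay mostly on Dnmt3a-205, at 5.12 TPM there and 0 in libraries 2 and 3. Its coding length, 75.9% of the longest, was just over the limit, and its read assignment was loose. The log2 ratio was -2.67 in library 1 and -4.16 and -3.90 in libraries 2 and 3. The order of the libraries by this measure thus depended on Dnmt3a-205.

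The excess of Dnmt3a TPM in library 2 lay mostly on short models. Its 11 transcripts shorter than 1200 bases held 9.03, 25.64 and 9.74 TPM on only 68.6, 159.38 and 70.99 estimated counts, while its 7 longer ones held 12.82, 14.91 and 10.98 TPM. The short group averaged 14.8 ± 9.39 TPM, highest in library 2, and the longer group 12.9 ± 1.97 TPM. Dnmt3a-206, an incomplete coding model of 827 bases, was at 2.9, 8.51 and 3.05 TPM. Dnmt3a-204, of 1115 bases, was at 2.67, 5.3 and 4.11 TPM, and the retained-intron model Dnmt3a-202 at 3.01, 4.97 and 2.63 TPM. Dnmt3a-215, annotated as a target of nonsense-mediated decay, had the highest mean TPM at 2.36, 7.36 and 5.67, but Dnmt3a-206 was higher in libraries 1 and 2 and in the deposited posterior means (15.1% of the gene against 10.8%). Neither model has an exonic base of its own. TPM divides a count by length, so a few reads placed on a short model weigh heavily. Of the Dnmt3a estimated counts, 46.0% ± 13.4 were placed on near full-length models, beside 17.1% ± 13.6 of its TPM.

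The 2 full-length Dnmt3a models of 908 amino acids, Dnmt3a-201 and Dnmt3a-218, were at 1.14, 0.83 and 0.85 TPM and at 0.79, 1.66 and 1.8 TPM. Dnmt3a-205, a model of 689 amino acids from the internal start, whose window is printed above, was at 5.12 TPM in library 1 and 0 in the other 2. The shorter protein from an internal promoter is known from mouse embryonic stem cells and germ cells. The estimate for Dnmt3a-205 was 116.09 counts in library 1 with a posterior SD of 35.4, and 0 counts with posterior SDs of 32.76 and 28.52 in libraries 2 and 3. With 16 exonic bases in no other transcript, the assignment was loose. The internal start took 23.4%, 0 and 0% of Dnmt3a TPM, and in the deposited posterior means 16.3%, 4.96% and 8.41%.

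Dnmt1 was split between 2 long models in a similar way in all 3 libraries. Dnmt1-201, coding for 1620 amino acids from the middle start, was at 26.44, 26.41 and 22.12 TPM, 49.2% ± 2.06 of the gene. Dnmt1-202, coding for 1501 amino acids from the far upstream start 6909 bases away, was at 17.43, 18.17 and 16.76 TPM, 34.6% ± 2.85. The share of the middle start was the higher in 3 of 3 libraries. In the mouse an upstream first exon is known from oocytes, where it gives a Dnmt1 protein that lacks the amino-terminal end. The models are told apart by 134 and 156 exonic bases that no other transcript holds, and the Dnmt1-202 counts of 901.95, 835.58 and 766.21 carried posterior SDs of 169.89, 157.31 and 164.09. The last of the 3 starts with a window printed above held 1.15% ± 0.995 of Dnmt1 TPM. Its CpG-rich window lies downstream of the middle start, so Dnmt1-201 also spans it. Retained-intron models Dnmt1-206 (4.69% ± 3.23 of TPM) and Dnmt1-204 start further downstream. The retained-intron model Dnmt1-204 held 7.17% ± 2.37 of TPM and 1.87% ± 0.612 of estimated counts.

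**Figure D2:**
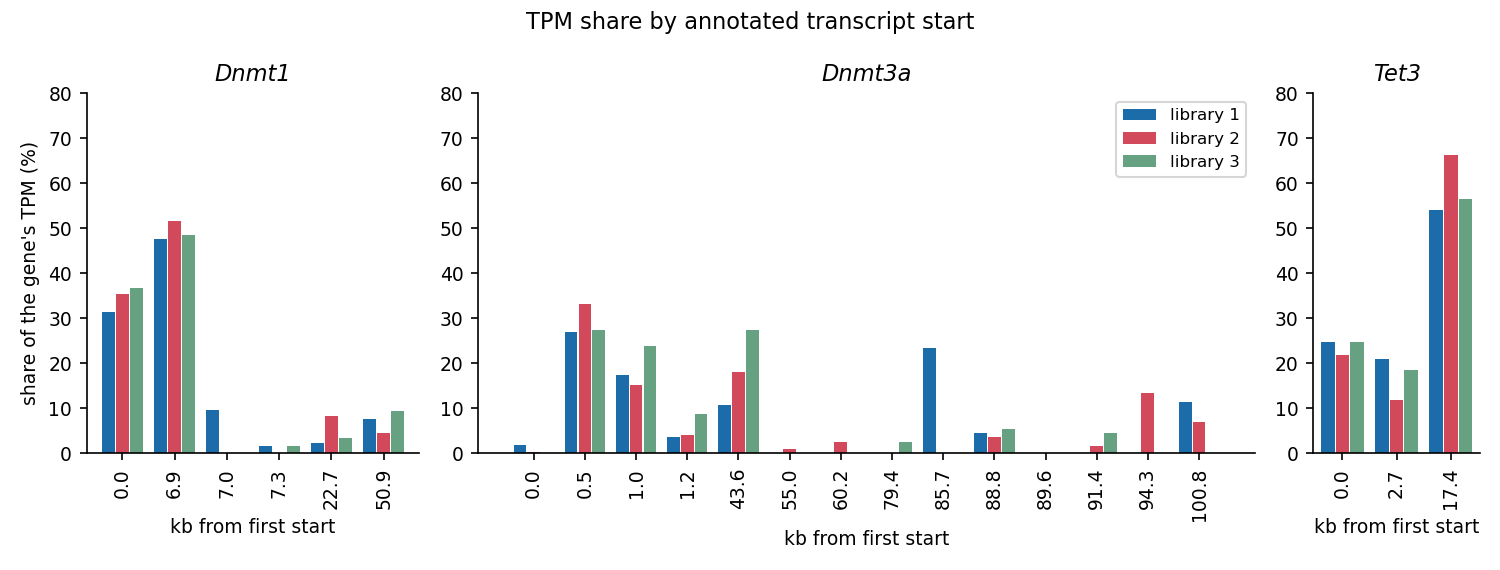
Share of each gene's TPM (%) by annotated transcript start for Dnmt1, Dnmt3a and Tet3, with distance in kb downstream of the gene's first start on the x axis (evenly spaced, not to scale) and 1 bar per library; starts within 100 bases are joined. The bars of the 2 leading Dnmt1 starts are close between libraries, whereas the third Dnmt1 start (9.57% in library 1) and the internal Dnmt3a start 85.7 kb downstream (23.4%) are at 0 in libraries 2 and 3.

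Dnmt3b had 12 models and no leader. Dnmt3b-206 was highest by mean at 0.607 ± 0.172 TPM. Dnmt3b-209 was listed at 1.12, 0.3 and 0 TPM, Dnmt3b-203 at 0, 1.36 and 0 TPM, and Dnmt3b-205 at 0, 0 and 1.15 TPM. A different one of these 3 thus led in each library, but none of them has an exonic base of its own, and their deposited posterior means all lay between 0.12 and 0.27 TPM. Near full-length models together were at 2.2, 2.12 and 1.73 TPM. The retained-intron models Dnmt3b-211 (0.523 ± 0.457 TPM) and Dnmt3b-212 (0.507 ± 0.478 TPM) were at 0 in library 2, where the total for the gene was lowest.

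Among the dioxygenases, Tet2 (chr3:133463679-133545139, minus strand), whose loss in mouse T cells and in human lymphoma is well studied, was at 46.1, 33.57 and 37.43 TPM. Tet3 (chr6:83362373-83459084, minus strand), an enzyme of the same family, was at 22.17, 22.98 and 28.48 TPM, below Tet2 in 3 of 3 libraries. Tet1 (chr10:62804570-62908996, minus strand), prominent in embryonic stem cells, was at 1.04, 0.09 and 0.41 TPM on 16, 11 and 48 estimated counts. The deposited credibility interval for library 2, 0.572 to 2.72 TPM, lies above the listed 0.09. It goes with the posterior mean of 1.61 TPM, of which 88.2% lay on models under 1200 bases with 0 counts in that library. Tet2 took 60.7% ± 5.20 of the family's TPM, Tet3 38.5% ± 5.76 and Tet1 0.759% ± 0.682.

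For both Tet2 and Tet3 most TPM lay on short or noncoding models and most counts on the long coding models. Tet2-201, coding for 1912 amino acids, was at 11.36, 8.74 and 10.42 TPM, which was 26.2% ± 1.61 of TPM and 74.5% ± 0.610 of estimated counts. Tet2-205, an incomplete model of 423 bases, held more TPM, 31.6% ± 5.46, on 3.68% ± 0.598 of the counts. The retained-intron models Tet2-210 and Tet2-203 held 17.7% and 13.5% of TPM. Of Tet3, the noncoding model Tet3-201 held 39.0% ± 8.55 of TPM and the incomplete Tet3-204, of 469 bases, 23.9% ± 1.67. On near full-length models Tet2 was at 10.2 ± 1.33 and Tet3 at 8.77 ± 1.77 TPM, and their ranges overlapped. The Tet3 to Tet2 log2 ratio was -0.67 ± 0.35 over all transcripts and -0.23 ± 0.18 over near full-length ones.

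Tet3 models are of 2 kinds in the mouse, a longer one with a CXXC domain, which binds unmethylated CpG, and shorter ones without it. Tet3-203, coding for 1803 amino acids from the start 2692 bases downstream of the first, was at 4.66, 2.7 and 5.3 TPM. Tet3-202, coding for 1668 amino acids from the start 17406 bases downstream, was at 4.64, 4.1 and 4.92 TPM. The 2 were close in libraries 1 and 3, and Tet3-203 was the lower in library 2. Both have long stretches of their own, 835 and 5669 exonic bases, and posterior SDs of at most 19.86 counts. Tet1 counts were listed mostly on Tet1-201 in libraries 1 and 2 (12.13 and 11 counts) and on Tet1-206 in library 3 (47.66 counts), models of 2007 and 2039 amino acids that begin at different starts. In library 1 most Tet1 TPM lay on Tet1-207 (0.55 TPM) and Tet1-210 (0.32 TPM), models of 414 and 361 bases, and all models under 1200 bases together held 3.87 counts.

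Among the PRC2 core genes, Eed (chr7:89954654-89980983, minus strand), the reader subunit, was the highest at 152.12, 217.04 and 178.1 TPM. Suz12 (chr11:79993106-80034123, plus strand), the scaffold, was at 32.85, 39.88 and 30.38 TPM. Ezh1 (chr11:101191115-101226463, minus strand), the catalytic subunit known for resting cells, was at 71.76, 75.82 and 74.63 TPM, and Ezh2 (chr6:47530139-47595341, minus strand), the one known for dividing cells, at 41.55, 38.41 and 44.8 TPM. Ezh1 exceeded Ezh2 in 3 of 3 libraries with no overlap. The ratio was 1.79 ± 0.163-fold in TPM (log2 0.84 ± 0.13) and 2.39 ± 0.355-fold over near full-length models (log2 1.24 ± 0.21).

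The distance between Eed and Suz12 narrowed on near full-length models. Eed exceeded Suz12 by 2.40 ± 0.17 on the log2 scale over all transcripts and by 1.46 ± 0.11 over near full-length ones, in 3 of 3 libraries each time. Eed-201, coding for 441 amino acids, was at 87.06, 93.82 and 79.23 TPM, 48.3% ± 7.75 of TPM and 74.2% ± 5.56 of counts. Eed models under 1200 bases varied more in TPM than Eed-201, summing to 65.06, 123.22 and 98.89 TPM, with library 2 the highest. Among them Eed-205, incomplete at its 5′ end, held 21.04% ± 4.58 and the retained-intron model Eed-207 15.9% ± 2.01 of TPM. Suz12 was simpler, with 83.5% ± 7.48 of TPM on Suz12-201 (741 amino acids), 8.43% ± 3.77 on Suz12-206 and 4.33% ± 3.86 on the retained-intron model Suz12-205.

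Ezh1 had 2 near-identical leading models, and their estimates traded places. Ezh1-203, coding for 750 amino acids, was at 44.37, 5.11 and 39.92 TPM, and Ezh1-202, coding for 747, at 7.17, 55.1 and 14.27 TPM. Library 2 was low for the first and high for the second. The posterior SDs of their counts ran from 372.26 to 456.31, Ezh1-203 has no exonic base of its own and Ezh1-202 has 14, so the split was poorly determined. Their common start held 81.4%, 89.3% and 80.3% of Ezh1 TPM, and the noncoding Ezh1-209 held 8.99% ± 3.33. For Ezh2, Ezh2-201 (746 amino acids) was at 23.55, 14.26 and 13.14 TPM, 41.0% ± 14.1 of the gene. Ezh2-202, which starts 17681 bases downstream of the first start and codes for 704 amino acids, was at 2.72, 6.4 and 8.49 TPM, and the fragment Ezh2-205 was at 6.24, 6.93 and 5.54 TPM.

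**Figure D3:**
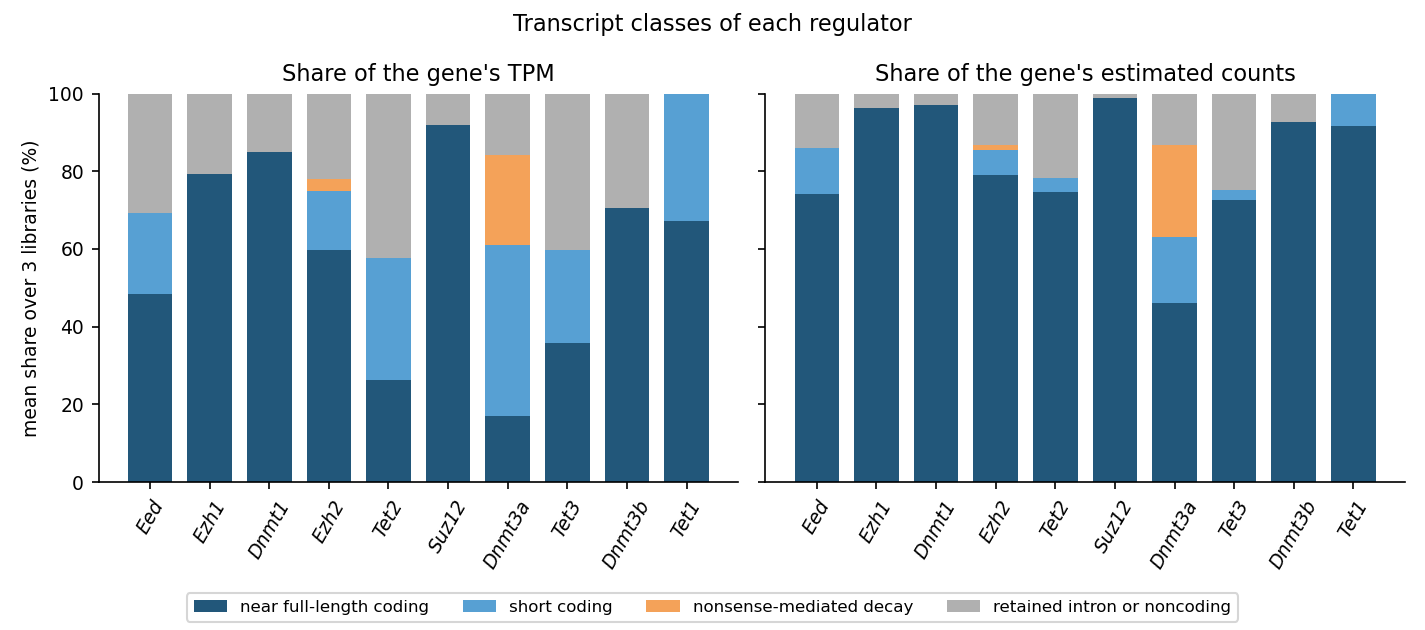
Mean share (%) of each gene's TPM (left) and estimated counts (right) by transcript class over 3 libraries, genes in order of mean TPM. Near full-length coding models hold 17.1% of Dnmt3a TPM and 26.2% of Tet2 TPM but 46.0% and 74.5% of their counts, and at least 84.9% of TPM in Dnmt1 and Suz12.

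The sources used here do not give the strand setting of the counts, so reads of overlapping genes on the opposite strand cannot be told apart from those of the regulators. Antisense models at Dnmt3a (Dnmt3aos) and Tet2 (Gm42567) had 0 counts, which allows up to 3. The most counted opposite-strand neighbours were Gm26563 at Suz12, with 98.6 counts over the 3 libraries beside 3815 of Suz12, and E230029C05Rik at Eed, with 86.5 beside 6512 of Eed.

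A library test asked whether each gene's estimated counts differed between the 3 libraries by more than counting noise (chi-square test of homogeneity with edgeR's TMM library sizes, Benjamini-Hochberg adjustment over 13949 genes, threshold 0.05). Of the 10 regulators 9 passed, where 57.2% of all genes tested did. Among genes with 1000 or more counts 70.0% passed, and all 8 regulators of that depth did. Over all genes the median chi-square was 6.45 times the median that counting noise gives. After division by that factor 0 of 10 regulators passed, with 4.45% of all genes passing, and 3 of 10 had an unadjusted p under 0.05, beside 11.4% of all genes. In the second deposited gene table the test passed 7 of 9 regulators deep enough to test. After division by that table's own factor it passed 1, Tet2 (adjusted p = 0.0443 by the same chi-square test). The share of all genes passing in that table is not given here, so these counts cannot be set against other genes.

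The differences themselves were small. The highest library exceeded the lowest by 1.15 to 1.38 times in normalised CPM (counts scaled to a common total) for 9 of 10 regulators. Of all genes tested, 63.7% stayed within 1.4 times, a limit just above the widest of these 9 ratios. That share takes in genes down to 30 counts, whereas 8 of the 10 regulators had 1000 or more. Suz12 had the strongest test, at 85.1, 97.3 and 70.4 CPM (adjusted p = 5.38e-13 by the chi-square test with edgeR's TMM sizes, 0.133 after division and 8.83e-05 without library 2). Eed was at 133.7, 163.6 and 135.5 CPM (adjusted p = 3.52e-12 by the same chi-square test, 0.166 after division). Library 2 was the highest for both, and also for Ezh1 and Dnmt3a. Dnmt3a was at 30.4, 42.1 and 31.3 CPM (adjusted p = 1.09e-07 by the same chi-square test, 0.485 after division). Without library 2 the adjusted p by this test was 0.792 for Dnmt3a, 0.786 for Eed, 0.111 for Ezh1 and 0.238 for Ezh2. Of the 10 regulators 5 then passed. The share of all genes passing without library 2 is not given here, so this count cannot be set against other genes.

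Library 2 was the lowest for Tet2, Tet3, Ezh2 and Tet1. Tet2 was at 85.9, 64.6 and 77.4 CPM (adjusted p = 1.26e-09 by the chi-square test with edgeR's TMM sizes), and without library 2 its adjusted p was 0.0369. Dnmt1 was lowest in library 3, at 150.5, 146.5 and 130.6 CPM, and without library 3 its adjusted p by the same chi-square test was 0.482 and that of Tet3 0.0667. Tet1 had the widest ratio, 4.37 between library 3 and library 2, on 48 and 11 estimated counts (adjusted p = 1.6e-07 by the same test). The second table held 2, 4 and 13 Tet1 counts, with library 3 again the highest. Dnmt3b was the regulator that did not pass (adjusted p = 0.375 by the same test), at 5.97, 5.37 and 4.69 CPM.

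**Figure D4:**
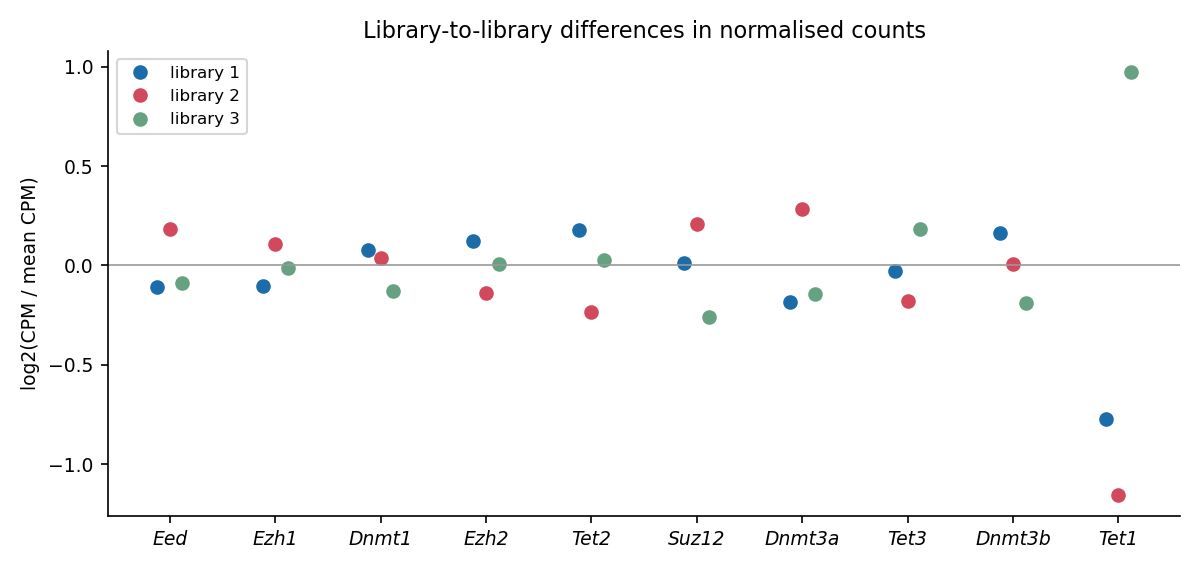
Log2 ratio of each library's normalised CPM to the mean of the 3 libraries, for the 10 regulators in order of mean TPM. Apart from Tet1, whose CPM ranges 4.37-fold, all points lie close to 0, and library 2 is the highest for Eed, Ezh1, Suz12 and Dnmt3a.

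Partners of the same pathways were read from lists chosen by function. Of 9 cofactors of DNA methylation, 7 had at least 1 TPM in every library. Uhrf2 was the highest at 337 ± 23.2 TPM, followed by the deubiquitinase Usp7 (112 ± 5.43) and the corepressor Trim28 (79.6 ± 16.2). Uhrf1, the paralog that recruits Dnmt1 to hemimethylated DNA, was at 6.19 ± 1.26 TPM, and Dnmt3l, the germ cell cofactor of the de novo enzymes, at 0.1 TPM. All 10 methyl-CpG readers reached 1 TPM, led by Mbd2 (410 ± 35.9) and Mbd3 (79.4 ± 7.41). Of 12 partners of demethylation 10 did, led by the stress gene Gadd45b (619 ± 17.4), the Tet-binding O-GlcNAc transferase Ogt (209 ± 2.57) and the glycosylase Tdg (72.5 ± 1.82), which removes oxidised methylcytosine.

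All 10 accessory subunits of PRC2 reached 1 TPM in every library, with a median of 51.4 TPM. The histone chaperone Rbbp4 was at 215 ± 9.89 TPM, Aebp2 at 207 ± 20.998 and Rbbp7 at 148 ± 10.7. Aebp2 was the one accessory gene that still passed the library test after division by the inflation factor (adjusted p = 0.011, chi-square test with edgeR's TMM sizes). Its levels were 203.33, 229.5 and 187.97 TPM, and this adjusted p was 0.599 without library 2 and 0.618 without library 3. All 22 subunits of PRC1, the complex that binds or precedes the PRC2 mark, reached 1 TPM, with a median of 23.3 TPM and Cbx7 (134 ± 7.29), Phc2 (124 ± 0.999) and the ubiquitin ligase Rnf2 (104 ± 8.72) the highest. Of 9 genes of H3K27 demethylases and of the Bap1 deubiquitinase complex, 8 reached 1 TPM, led by the H2A deubiquitinase Bap1 (67.5 ± 2.59) and the H3K27 demethylases Kdm6a (63.6 ± 3.77) and Kdm6b (46.3 ± 4.80).

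Dnmt1 and Ezh2 are known to be higher in dividing cells, so proliferation genes are given beside them. Their 15-gene list had a median of 3.30 TPM, with 9 at 1 TPM or more in every library. The replication genes Pcna (158 ± 6.11), Mcm3 (37.4 ± 5.004) and Mcm2 (34.3 ± 2.57) were the highest, and Mki67, a marker of cycling cells, was at 0.9 TPM. What part dividing cells had in the levels of Dnmt1 and Ezh2 was not tested.

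**Figure D5:**
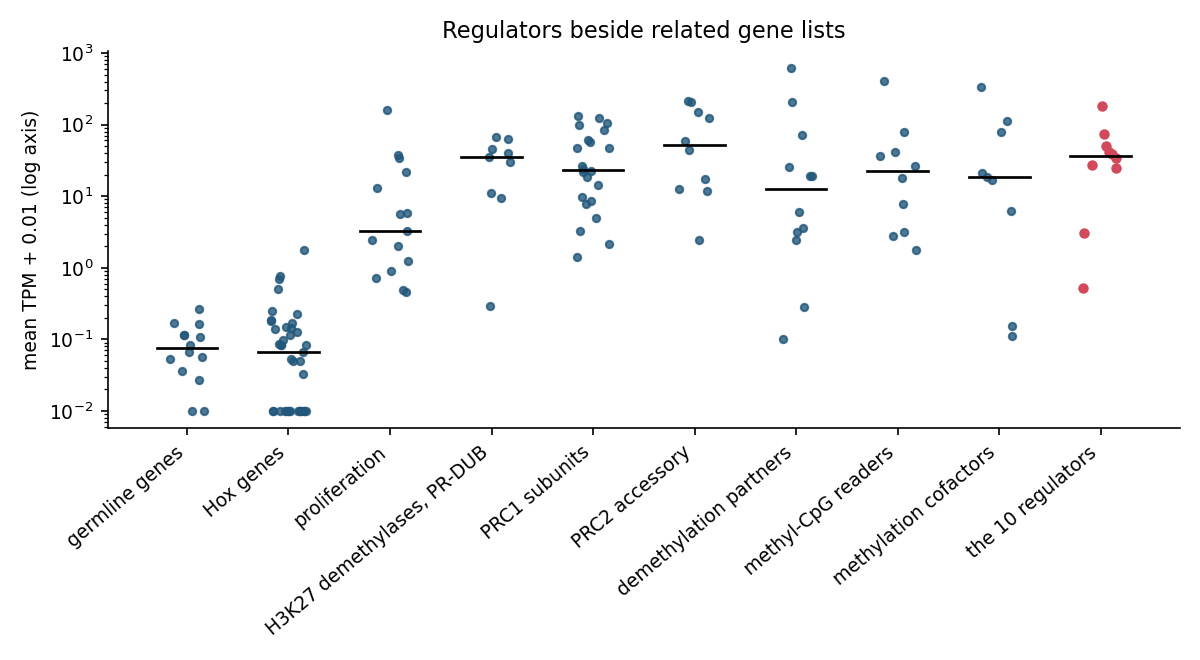
Mean TPM plus 0.01 (log axis) of the 10 regulators (red) and of related gene lists (blue), 1 point per gene, with black bars for medians. The regulators have a median of 36.7 TPM, the PRC2 accessory list 51.4 and the proliferation list 3.30, and every gene of the germline list and all but 1 of the Hox list lie below 1 TPM.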

How the data were processed

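The 3 polyA RNA-seq libraries of 1 mouse formed 1 group. Per the labels, RNA was sheared acoustically (Covaris, fragments of 100 to 300 bases) and mm10 was the assembly. The sources used here do not give the aligner, the quantifier, the strand setting or the sort. Per the file headers, the authors deposited estimated counts (expected counts, which divide ambiguous reads among transcripts), TPM, FPKM and posterior mean TPM per gene and transcript. A second deposited table per library holds whole-number counts per gene from another annotation version, summing to 5110680, 4812984 and 4579836. All 55536 gene identifiers matched GENCODE M21. The 26345 rows that name no mouse gene held 0.188% to 0.579% of counts and were left out.

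Levels are the deposited TPM, per library and as mean ± SD. Transcripts were grouped by start (within 100 bases), by annotated class and by length (limit 1200 bases), and shares were computed as a percent of the deposited gene TPM. Near full-length models (coding length at least 75% of the longest) were defined after the data were seen. Rounded estimated counts of genes with 30 or more in total were compared between libraries by chi-square, with expected shares from edgeR's TMM sizes, and p-values were adjusted by Benjamini-Hochberg (threshold 0.05). The test was tested on counts simulated with counting noise only, without the wider spread seen between these libraries. A count of 0 allows up to 3 counts, for counting error only, which is 0.185, 0.202 and 0.212 CPM in libraries 1, 2 and 3. Alternatives were size factors from DESeq2, totals, no count minimum or 100, FPKM, posterior means, a pseudocount of 1, the second table and leaving out each library.

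The members and gene lists were chosen with earlier results of these data known. All 10 members are named, with their 3 highest transcripts and those with at least 10% of TPM, and the 3 highest genes of each list, those that passed the corrected test and, in lists of silenced genes, those at 1 TPM or more. 1 gene that this rule covers is not reported here. Other transcripts and genes named (among them Uhrf1, Dnmt3l, Mki67, Dnmt3a-201, Dnmt3a-205 and Dnmt3a-218) were chosen after their values were seen. Sequences are RefSeq's on GRCm38.p6. Tools were edgeR 4.0.16 and DESeq2 1.42.0 under R 4.3.3, plus Python 3.11.15, scipy 1.17.1, numpy 2.4.6, matplotlib 3.10.9 and pandas 2.3.3.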

Additional observations from a re-analysis of the deposited data

How the results depend on the processing

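No paired analysis was possible because all 3 libraries belong to 1 group. The number of regulators past the library test was 9. It was 9 with DESeq2 size factors, with total counts and with no count minimum, 8 with a minimum of 100 counts, 7 in the second table, 0 after division by the median inflation and 1 in the second table after division. It ran from 5 to 8 on leaving out 1 library, with 5 without library 2. Tet1 was below the count minimum, and so not tested, with the minimum of 100, in the second table and without library 3. Of all genes tested, 57.2% passed the main test and 4.45% passed after division by the median inflation. Shares under the other settings are not given here, so those counts cannot be set against other genes. The number with at least 1 TPM in every library was 9 in TPM and FPKM and on leaving out any library. It was 10 in posterior means, where Tet1 reached 1.61 to 2.27 TPM, mostly on short models with few or no counts.

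No log2 ratio changed sign under any setting tried. Dnmt3a to Dnmt1 moved from -0.94 to -2.06 in CPM, -2.52 in the second table and -3.58 over near full-length models, and ran from -1.24 to -0.74 on leaving out 1 library. Tet3 to Tet2 moved from -0.67 to -0.29 in CPM and -0.23 over near full-length models (-0.80 to -0.47). Ezh1 to Ezh2 moved from 0.84 to 1.64 in CPM, 0.97 in the second table and 1.24 over near full-length models (0.76 to 0.88). Eed to Suz12 moved from 2.40 to 0.78, 1.00 and 1.46 (2.33 to 2.50). CPM is not divided by length, so its ratios between genes are not levels.

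The leading transcript's share, as a median over the regulators, was 39.8% of TPM, 33.3% in posterior means and 53.9% of counts (38.0% to 43.3% on leaving out 1 library). The leading start's share was 48.8% of TPM, 73.9% of counts and 56.3% with starts within 500 bases joined (49.5% to 53.0%). Short models, which weigh more in TPM than in counts, enter each of these.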

Other observations

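The Hox and germline genes, known as targets of these regulators, were mostly at or near 0. Of 39 Hox genes, classical polycomb targets, 0 reached 1 TPM in every library and 15 had 0 counts in all 3, which allows up to 3 counts a library. Of 22028 protein-coding genes, 45.5% reached 1 TPM in every library and 3021 had 0 counts, with a median of 0.7 TPM. Hoxa7 was the highest at 1.77 ± 1.49 TPM (SD, n = 3), with Hoxa9 at 0.75 ± 0.285 and Hoxc12 at 0.683 ± 0.626. Of 14 germline genes known to be silenced by DNA methylation in somatic cells, 0 reached 1 TPM in every library, and the highest were Dazl (0.253 ± 0.439), Hormad1 (0.157 ± 0.137) and Pou5f1 (0.153 ± 0.0929).

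Of 11 other genes known as polycomb targets in some cell types, 5 reached 1 TPM in every library, a share like the 45.5% of protein-coding genes. They were Tbx21, the T-bet gene of type 1 helper cells (248 ± 23.2 TPM), Gata3, the regulator of type 2 helper cells (42.6 ± 0.525), the cell cycle inhibitors Cdkn2b (8.71 ± 0.525) and Cdkn2a (1.07 ± 0.00577), and Eomes (3.15 ± 0.690). The Cdkn2a level rested on 25 counts over the 3 libraries, below the 30 needed for the library test. Tbx21 was highest in library 2, at 273.32 TPM. It passed the library test after division by the inflation factor (adjusted p = 0.0195, chi-square test with edgeR's TMM sizes). This adjusted p was 0.992 without library 2 and 0.306 without library 1. Occupancy of these genes by the regulators was not measured in these libraries.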
